A study of Mus musculus with 21 samples.

Results

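The comparison described here set the testes of FXRα knockout (KO) mice against those of wild-type (WT) mice when both had been given vehicle only. It used 7 of the study's 21 libraries, all those labelled vehicle: 4 WT animals (T66, T71, T79 and T81) and 3 KO animals (T1, T90 and T110), each library from the testis of a single mouse at postnatal day 10. The other 14 libraries came from animals of the same 2 genotypes given bisphenol A (BPA), a plastics monomer, or stigmasterol, a plant sterol. They entered only the comparison across treatments near the end. All animals, WT and KO alike, carried a mixed background labelled 50% 129sv and 50% C57Bl6. The sources used here do not give the vehicle itself, its route, the litters or the exon deleted in the KO. WT and KO animals were therefore compared as individual mice, and p-values measure the spread between these mice.

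FXRα, encoded by Nr1h4, is a nuclear receptor that binds bile acids and, paired with the retinoid X receptor, activates genes through an inverted repeat of a short half-site. In liver and gut it switches on the repressor SHP (Nr0b2) and bile acid exporters and so limits bile acid synthesis. In the testis it has been studied in Leydig, Sertoli and germ cells. At the age sampled, mouse seminiferous tubules hold spermatogonia, germ cells entering meiosis and dividing Sertoli cells, and no sperm.

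Of 32643 genes in the table, 19062 had enough reads to test. The libraries held 38943327 to 61498855 counted reads, and 3 reads in a library, taken as the floor of detection, corresponded to 0.0488 to 0.077 CPM, the count scaled to library size. Replicate animals differed by a biological coefficient of variation of 18.6%. One library-level feature recurred in the results: Cdh16, a cadherin of kidney and epididymal epithelium, was at 16.5 CPM in WT T81, 40.1 in KO T1 and 22.9 in KO T110, and at 0.0981 to 1.17 CPM in the other 4. The count of called genes is therefore also given without those 3 libraries, which leaves 3 WT animals and 1 KO animal, whose spread is assumed to be that of the WT animals.

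The targeted gene was checked first. Nr1h4 (ENSMUSG00000047638, mm10 chromosome 10, 89454234 to 89533585) was low in all 7 testes, at 0.348, 0.631, 0.536 and 0.625 CPM in WT T66, T71, T79 and T81. It was at 0.218, 0.288 and 0.277 CPM in KO T1, T90 and T110, from 11, 18 and 11 reads, against 16 to 25 reads in each WT library. The KO animals were all below the WT animals (log2 difference -1.02 ± 0.309, SE), but the difference did not pass the test (edgeR, adjusted p = 0.183). Transcript counted over the whole gene was thus still present in every KO library. As the sources used here do not give the deleted part of the gene, this count does not check the labels of single animals.

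Few genes were called between the genotypes, most of them with large changes. At an adjusted p of 0.05, 185 of 19062 genes (0.971%) differed between KO and WT in edgeR's quasi-likelihood test, 102 higher in KO (0.535%) and 83 lower (0.435%). Of these, 149 differed at least 2-fold, 88 higher and 61 lower. The groups did not overlap for any of the 185 genes, and they did not overlap for 3220 genes in all (16.9% of those tested). The median log2 fold change over all genes tested was 0.00. Without KO T1 the count fell to 93, without KO T110 to 88 and without WT T71 to 123, and 72 of the 185 calls were made in all 7 fits that each left out 1 animal. Without the 3 libraries with high Cdh16 it was 29 genes, 18 higher and 11 lower. All 185 genes kept their direction there, but this was close to fixed in advance because their groups did not overlap.

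**Figure D1:**
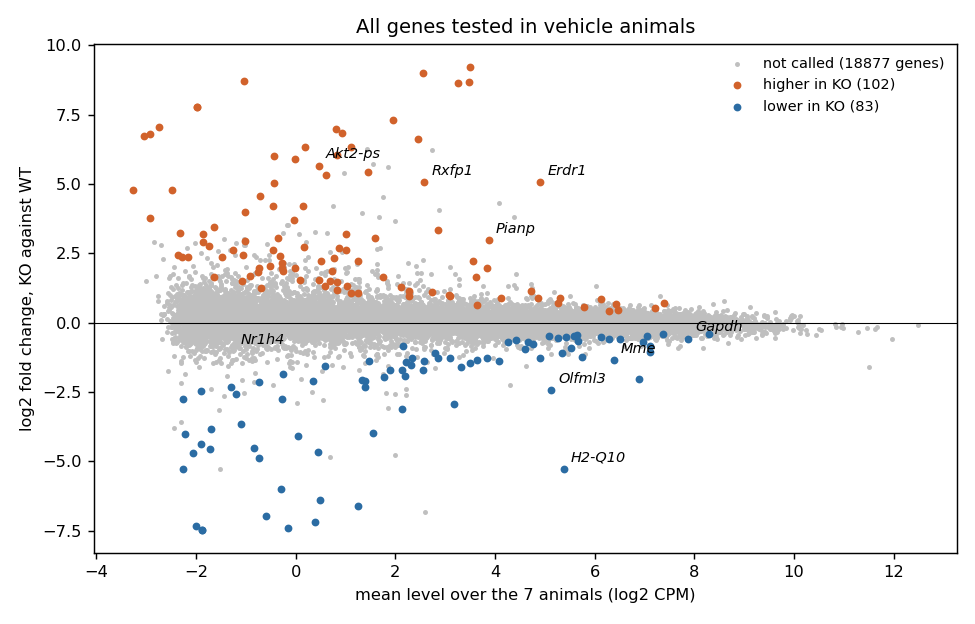
Log2 fold change of KO against WT (y axis) against the mean level over the 7 vehicle animals (x axis, log2 CPM), 1 point per gene tested. The 102 genes called higher (orange) and 83 called lower (blue) lie mostly among genes of low and middle level, and named genes are labelled.

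Most of the called genes were weakly expressed. In 40 of them the mean of the higher group was under 1 CPM, in 82 it was 1 to 10 CPM, in 49 it was 10 to 100 CPM, and in 14 it was 100 CPM or more. The genes tested were not counted as a whole in these classes. Whether called genes were weaker than tested genes in general was therefore not tested. The median size of the log2 change fell along these classes, from 3.34 and 2.22 to 1.10 and 0.63. This fall was in part built in, because at few reads only large changes can pass the test. Many calls were close to all-or-none: 42 of the 102 genes called higher were under 0.2 CPM in every WT library, and 24 of the 83 called lower were under 0.2 CPM in every KO library.

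Rxfp1 (ENSMUSG00000034009, chromosome 3, 79641611 to 79737880), the receptor for relaxin, rose steeply in KO. It was at 0.37, 0.303, 0.581 and 0.313 CPM in WT T66, T71, T79 and T81 and at 8.97, 18.6 and 12.5 CPM in KO T1, T90 and T110. Every KO animal lay far above every WT animal, and the KO animals spread over a wider range. The log2 fold change was 5.07 ± 0.324 (SE, adjusted p = 9.94e-05). Its call held in all 7 fits without 1 animal and without the libraries with high Cdh16 (5.46, adjusted p = 0.00575). Among the relaxin family genes listed for comparison, 5 were tested and Rxfp1 was the 1 called. Rln3, a relaxin peptide, was at 0.464 ± 0.209 CPM (SD, n = 4) in WT and 1.07 ± 0.066 CPM (SD, n = 3) in KO (log2 1.19, edgeR adjusted p = 0.173).

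Several other protein-coding genes rose several-fold from a low level. Pianp, a membrane ligand of an inhibitory immune receptor, was at 3.4, 2.17, 5.36 and 3.88 CPM in the WT animals and 31.2, 19.5 and 37.3 CPM in the KO animals (log2 2.98 ± 0.309, adjusted p = 0.0023). Tchh, the hair follicle protein trichohyalin, was at 3.51 to 6.68 CPM in WT against 18.1 to 26.5 in KO (log2 2.24, adjusted p = 0.00263). Tmod4, a tropomodulin that caps actin filaments, was at 0.469 to 0.849 CPM in WT against 3.62 to 4.06 in KO (2.63, 0.000703). For these genes the lowest KO animal was more than 2 times the highest WT animal. Igsf23, an immunoglobulin superfamily member, was tight within each group, at 0.588 to 0.656 CPM in WT against 2.78 to 3.35 in KO (2.33 ± 0.18, adjusted p = 0.00029). Ppm1n, a protein phosphatase, rose from 0.282 to 1.49 CPM (2.39, 0.0028). Each of these 5 calls held in all 7 fits that left out 1 animal. Dnah6, an axonemal dynein heavy chain, was at 0.067 to 0.239 CPM in WT against 0.8 to 3.73 in KO (3.72, 0.0252). Sncb, β-synuclein, was at 0.156 to 0.936 CPM in WT against 2.4 to 5.44 in KO (3.18, 0.0342). Both of these calls were made in 1 of the 7 fits.

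**Figure D2:**
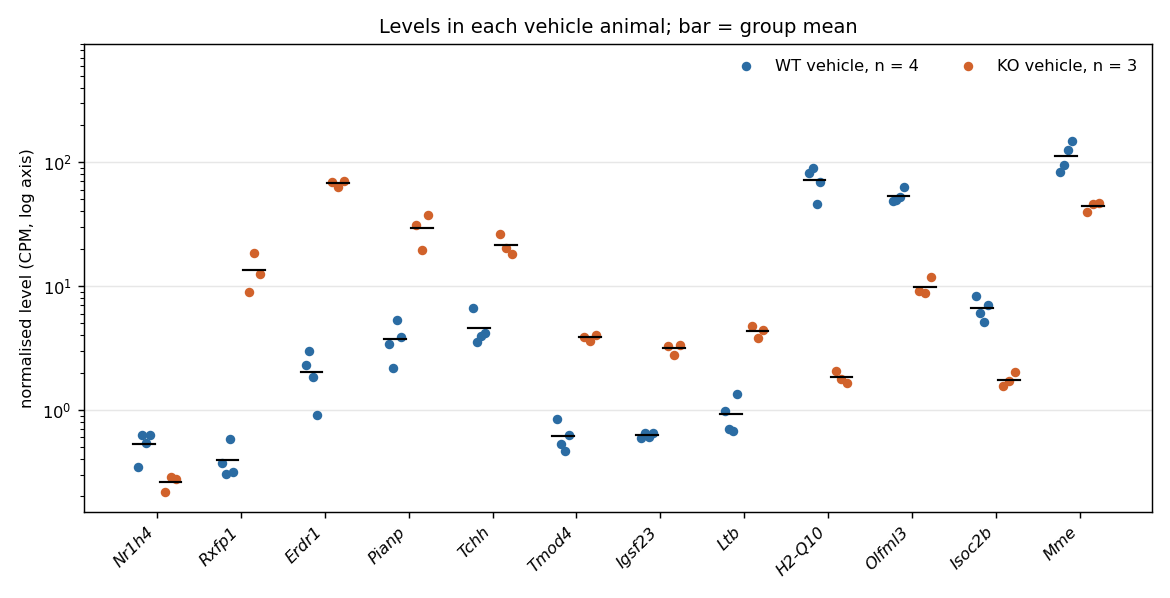
Normalised level (CPM, log axis) of 12 named genes in each of the 4 WT (blue) and 3 KO (orange) vehicle animals, with bars at the group means. The groups do not overlap for any of the 12 genes, and Nr1h4, whose difference did not pass the test (adjusted p = 0.183), has the lowest KO levels.

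H2-Q10 (ENSMUSG00000067235, chromosome 17, 35470089 to 35474563), a secreted MHC class I molecule best known from liver, fell in every KO vehicle animal. It was at 81.3, 90.3, 46.3 and 68.8 CPM in the WT animals and at 2.06, 1.79 and 1.66 CPM in the KO animals. The log2 fold change was -5.28 ± 0.262 (SE, adjusted p = 2.62e-05), with a wide gap between the groups. Class I genes resemble each other in sequence, so some reads may come from other members of the family.

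Olfml3 (ENSMUSG00000027848, chromosome 3, 103733700 to 103738001), a secreted olfactomedin-domain protein of the extracellular matrix, was at 49, 49.2, 52 and 63.5 CPM in WT and 9.05, 8.78 and 11.8 CPM in KO. The fall (-2.44 ± 0.15, adjusted p = 8.76e-05) separated the groups widely and held in all 7 fits without 1 animal. Mme, the peptidase neprilysin, was at 83, 95.5, 126 and 147 CPM in WT and 39.5, 46.3 and 46.5 CPM in KO (-1.36 ± 0.191, adjusted p = 0.0136). Its groups did not overlap, but the call was made in 5 of the 7 fits. Tmem100, a membrane protein of vessels and nerves, was at 9.01 to 21.3 CPM in WT against 4.42 to 4.91 in KO (-1.58, 0.0472; 3 of 7 fits). Usp44, a deubiquitinase, fell from 3.74 to 1.45 CPM (-1.37, 0.0119; 4 of 7 fits).

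At the start of chromosome 7, 5 genes fell and 3 rose. Eps8l1, an actin regulator of the EPS8 family, was at 2.23 to 9.38 CPM in WT against 0.416 to 1.29 in KO (-3.13, adjusted p = 0.0403; 1 of 7 fits). Isoc2b, an isochorismatase-domain protein, was at 5.16 to 8.38 CPM in WT against 1.55 to 2.01 in KO (-1.93, 0.0034; 7 of 7 fits). Shisa7, a subunit of synaptic receptor complexes, was at 2.84 to 6.33 CPM in WT against 0.736 to 0.882 in KO (-2.31, 0.0106; 4 of 7 fits). Lair1, an inhibitory collagen receptor of leukocytes, was at 3.24 to 6.29 CPM in WT against 1.04 to 1.94 in KO (-1.69, 0.0461; 1 of 7 fits). All 4 genes lie between 4007073 and 4866193 on that chromosome. The 3 rises were Pira2, an immunoglobulin-like receptor of leukocytes (2.95, adjusted p = 0.00073; 7 of 7 fits), Sbk2, a kinase (1.88, 0.0236), and Gm7353 (2.42, 0.0442), and the fifth fall was Gp6, the platelet collagen receptor, with 72 reads in WT and 0 in KO. The remaining named falls were Guca1b, a guanylate cyclase activator of photoreceptors (-2.05, 0.00858), Fgfbp3, a binding protein of fibroblast growth factors (-1.39, 0.0308), Tspan11, a tetraspanin (-1.33, 0.0296), and H2-Eb1, an MHC class II β chain (-1.56, 0.0326).

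Smaller changes were called among more abundant genes. The glycolytic enzyme gene Gapdh was at 248 to 296 CPM in WT against 171 to 203 in KO (-0.57 ± 0.0922, adjusted p = 0.0259; 3 of 7 fits). Ide, the insulin-degrading enzyme, fell from 150 to 91.5 CPM (-0.71, 0.0296; 3 of 7 fits). Man2b1, lysosomal α-mannosidase, rose from 69.1 to 109 CPM (0.66, 0.00263; 7 of 7 fits). Agrn, the basement membrane proteoglycan agrin, rose from 125 to 181 CPM (0.54, 0.0253; 1 of 7 fits). Nnt, the mitochondrial transhydrogenase, rose from 30.1 to 49.6 CPM (0.72, 0.0217; 1 of 7 fits). These 5 genes were picked out after their values were seen.

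Processed pseudogenes and duplicated genes were common among the calls. Pseudogenes were 48 of the 185 called genes (25.9%) and 617 of the 19062 tested (3.24%), so that 7.78% of tested pseudogenes were called against 0.729% of 16184 protein-coding genes (63 higher and 55 lower). A near-identical copy, at least 95% identical over at least 50% of the transcript, was found for 52 of 183 called genes with a transcript to align (28.4%) and for 823 of 18893 tested genes (4.36%). Of the calls at least 2-fold higher, 34 of 87 had such a copy.

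The extreme case was Gm13394, a copy of Gapdh with 99.9% identity, which averaged 0.0395 CPM in WT and 26.2 CPM in KO (log2 9.21 ± 0.441, adjusted p = 2.62e-05). Gapdh itself was the gene that fell above. Gm6472, a copy of the ribosomal protein gene Rps7 (99.4%), went from 0.0617 to 25.8 CPM. Gm3608, a copy of the actin-capping gene Capza1 (99.5%), went from 0.123 to 12.5 CPM. In the other direction, Gm15920, a copy of Ndufa12 (99.5%), went from 2.29 to 0.0137 CPM, and Gm15703, related to Rnaseh2a (93.8%), from 2.42 to 0.0239 CPM. None of the parents Rps7, Capza1, Ndufa12 and Rnaseh2a passed the test (adjusted p = 0.21, 0.0697, 0.123 and 0.228).

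Other genes with a near copy follow. Akt2-ps was at 0.0447 to 0.0782 CPM in WT against 2.62 to 3.55 in KO (5.67 ± 0.271, adjusted p = 2.62e-05), while its parent kinase gene Akt2 did not pass (-0.11, 0.532). Ccnd3-ps was at 0 to 0.0757 CPM in WT against 1.98 to 2.42 in KO (5.89, 0.000254), while the parent cyclin gene Ccnd3 did not pass (-0.33, 0.27). Erdr1, annotated on chromosome Y with a related copy (Gm21887, 98.5% identity), was at 0.912 to 2.98 CPM in WT against 62.5 to 70.1 in KO (5.06 ± 0.297, adjusted p = 6.92e-05). Gm21887 rose with it, from 0.128 to 2.43 CPM (4.20, adjusted p = 0.00464). C1s2, a copy of the complement protease gene C1s1 (96%), was at 0.429 to 0.678 CPM in WT against 2.86 to 4.56 in KO (2.7, 0.001). The sources used here do not say how reads matching several places were counted, so for genes with copies the source of the reads is uncertain.

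Called genes were unevenly spread over the genome. The 4 chromosomes with most calls, 17, 3, 7 and 6, held 96 of the 185 calls and 4198 of the 19062 genes tested. Chromosomes 4 and 11 followed with 15 calls each. Chromosome 17 had 28 of 916 genes called (3.06%), chromosome 3 had 26 of 869 (2.99%) and chromosome 7 had 26 of 1474 (1.76%). Among autosomes the lowest share was on chromosome 9, which had 2 of 1057 (0.189%). Chromosome 10, which carries Nr1h4, had 5 of 872 (0.573%). Within 5 Mb of Nr1h4, 3 of 81 genes were called (3.70%), beside 0.971% of all genes tested. Usp44 (93831555 to 93848524) is among these 3. For them the FXRα genotype and a linked parental allele cannot be told apart.

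**Figure D3:**
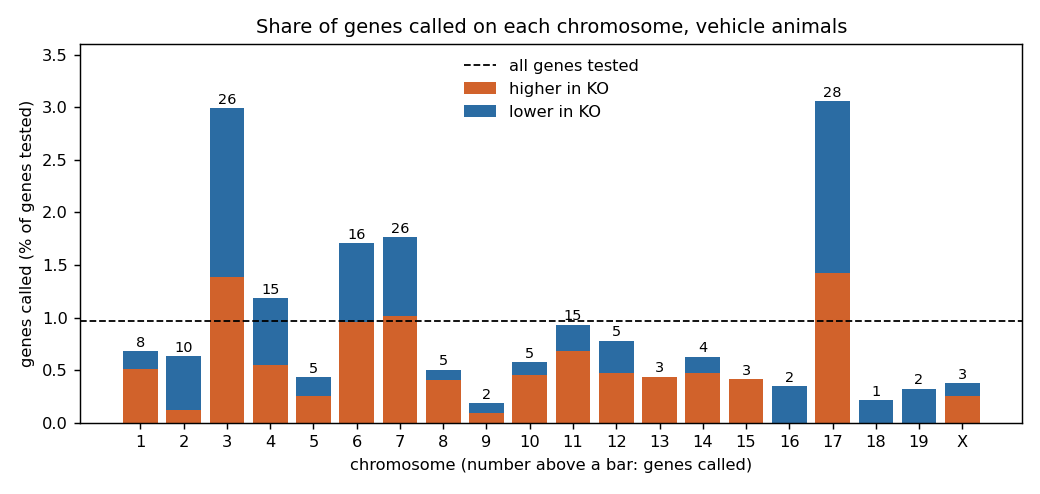
Genes called in vehicle animals as a percentage of the genes tested on each autosome and on chromosome X, split into genes higher (orange) and lower (blue) in KO, with the number of called genes above each bar and the value over all genes as a dashed line (0.971%). Chromosomes 17 and 3 stand highest, at 3.06% and 2.99%, and chromosomes Y (15 genes tested) and MT are not drawn.

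Of 535 windows of 5 Mb that held a tested gene, 428 had no called gene and 7 had at least 5. Those 7 windows held 53 called genes of 573 tested, and 132 of 18489 genes outside them were called (0.714%). On chromosome 17, 9 of 95 genes were called between 35 and 40 Mb (7 higher, 2 lower) and 8 of 133 between 30 and 35 Mb (4 higher, 4 lower), the region of the mouse major histocompatibility complex. Ltb, Lta, H2-Q1, H2-K2, Rps18 and H2-Eb1 are among them. On chromosome 7, 8 of 56 genes were called between 0 and 5 Mb (3 higher, 5 lower) and 8 of 109 between 15 and 20 Mb (5 higher, 3 lower), where Igsf23, Ppm1n and Apoc2 lie. On chromosome 2, 8 of 44 genes were called between 175 and 180 Mb, all lower in KO and all with predicted-gene symbols, such as Gm4631 (178 to 86.4 CPM) and Gm14403 (14.5 to 1.91 CPM). On chromosome 4, 7 of 99 were called between 40 and 45 Mb, again all lower, among them Gm10600 (1.57 to 0.0084 CPM). On chromosome 17 between 70 and 75 Mb, 5 of 37 were called, 1 of them higher. The animals were of mixed 129sv and C57Bl6 descent, and the sources used here give no alleles. The FXRα genotype and the parental allele at a linked or fixed locus therefore cannot be told apart for any of these genes. The same holds for called genes outside these windows, such as Rxfp1, Olfml3, Tmod4, Tchh and Mme on chromosome 3.

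Genes known to respond to FXR or to carry bile acids were then read as a group. Of 31 listed genes, 18 had enough reads to test. Of these 1 fell and 0 rose, beside 0.435% lower and 0.535% higher among all genes tested, with 9 log2 fold changes above and 9 below zero and a median of -0.03 beside 0.00 for all genes. The sum of the list was 188 to 211 CPM in WT against 199 to 211 in KO. Apoc2, the activator of lipoprotein lipase, was the gene that fell, from 34, 16, 21 and 8 reads in WT T66, T71, T79 and T81 to 2, 1 and 0 reads in KO T1, T90 and T110. Pooled over libraries, WT was 23.1 times KO relative to depth (95% exact interval 7.63 to 115, counting error only). The adjusted p was 0.026 in edgeR. The call was lost without any 1 of the 3 KO animals (0.0748 without T1, 0.0988 without T90 and 0.099 without T110), and without WT T66, T71 or T79 the gene had too few reads to be tested.

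The hallmark targets did not pass the test. Nr0b2, the repressor SHP, was at 1.87, 1.64, 2.57 and 3.52 CPM in WT and 1.17, 1.26 and 1.79 CPM in KO, and the groups overlapped (-0.77 ± 0.302, edgeR adjusted p = 0.266). Slc51a and Slc51b, the 2 subunits of the bile acid exporter OSTα-OSTβ, had log2 fold changes of 0.96 (0.222) and -0.27 (0.656). Nr0b1, the related repressor DAX-1 of the steroidogenic lineage, averaged 72.1 CPM in both groups (0.00, adjusted p = 1). Abcc3, another bile acid exporter, was at 1.82 to 2.81 CPM in WT against 3.18 to 5.34 in KO, without overlap (1.02 ± 0.233, 0.103). The enzymes Cyp7a1, which limits bile acid synthesis in liver, and Cyp27a1, which oxidises the sterol side chain, had log2 fold changes of 0.02 and 0.01. Abcb11, the bile salt export pump of liver, was at 0.0756 to 0.227 CPM in all 7 libraries and was not tested.

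Promoters were searched for the inverted repeat that FXR binds, 2 copies of the half-site AGGTCA facing each other with 1 base between them, with up to 2 mismatches in 12 letters. The repeat reads the same on both strands, and sequences were those of RefSeq (GRCm38.p6, which has the mm10 coordinates) from 250 bases before to 50 bases after each start. A match was found for 364 of 27025 genes with a promoter in the table (1.35%), for 159 of 12824 tested genes (1.24%) and for 0 of the 89 called genes matched to it. Abcb11 is shown because its promoter carries the repeat 63 bases before the start with 1 mismatch, and a weaker one 94 bases before it with 2. Apoc2, the listed target that fell, and Olfml3, a called gene outside that list, are shown because no match was found in theirs. Capitals mark the matches, and the promoters lie on the minus strand at chr2:69342567-69342866, chr7:19677892-19678191 and chr3:103737952-103738251.
Abcb11: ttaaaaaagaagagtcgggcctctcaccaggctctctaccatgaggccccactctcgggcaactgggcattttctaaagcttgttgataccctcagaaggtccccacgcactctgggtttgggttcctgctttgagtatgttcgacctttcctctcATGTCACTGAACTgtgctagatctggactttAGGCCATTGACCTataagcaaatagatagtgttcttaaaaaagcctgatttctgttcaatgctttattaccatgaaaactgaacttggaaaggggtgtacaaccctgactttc
Apoc2: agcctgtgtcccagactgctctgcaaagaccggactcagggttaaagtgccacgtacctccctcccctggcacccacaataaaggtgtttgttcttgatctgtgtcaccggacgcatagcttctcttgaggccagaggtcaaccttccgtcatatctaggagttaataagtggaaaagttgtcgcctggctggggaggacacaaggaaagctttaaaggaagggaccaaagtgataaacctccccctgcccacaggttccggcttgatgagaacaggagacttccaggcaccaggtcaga
Olfml3: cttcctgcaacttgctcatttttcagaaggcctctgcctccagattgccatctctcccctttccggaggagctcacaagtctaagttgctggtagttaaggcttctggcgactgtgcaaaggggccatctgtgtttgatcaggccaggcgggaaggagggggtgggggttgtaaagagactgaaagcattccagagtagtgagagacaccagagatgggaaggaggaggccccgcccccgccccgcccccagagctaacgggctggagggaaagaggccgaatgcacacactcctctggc
These letters say only what this window holds. Distal sites were not searched.

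Markers of epididymal and efferent duct epithelium had log2 fold changes above zero, with 1 call, beside calls for 0.971% of all genes tested. Of 22 listed genes 16 were tested, all 16 with a log2 fold change above zero (median 1.26). Epcam, an epithelial adhesion molecule also found on spermatogonia, was at 60.8, 54.7, 47.4 and 46.4 CPM in WT and 108, 85 and 89.9 CPM in KO (0.85 ± 0.122, adjusted p = 0.015). That call was lost without KO T1 (0.0662), without KO T110 (0.0575) and without the 3 libraries with high Cdh16 (0.717). The list summed to 136 to 172 CPM in the WT animals and to 457, 186 and 262 CPM in KO T1, T90 and T110. Crisp1, a secreted protein of the epididymis, was at 116.6 CPM in KO T1, 16.8 in KO T110, 13 in WT T81 and at most 0.048 in the other 4 libraries. The keratin gene Krt19 followed the same animals, at 18.6, 6.02 and 1.2 CPM, and at 0.303 to 0.603 CPM elsewhere. Defining markers of the mature duct were at or near 0: Lcn5 was at 0 in 6 of 7 libraries and Lcn8 at most at 0.218 CPM. In total RNA of a whole organ, fewer cells of a type and less RNA per cell cannot be told apart, here and for the lists that follow. The part of this RNA in the calls was not tested beyond the fit without those libraries, where Rxfp1, Erdr1, Olfml3, H2-Q10, Akt2-ps and Ccnd3-ps were among the genes still called.

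**Figure D4:**
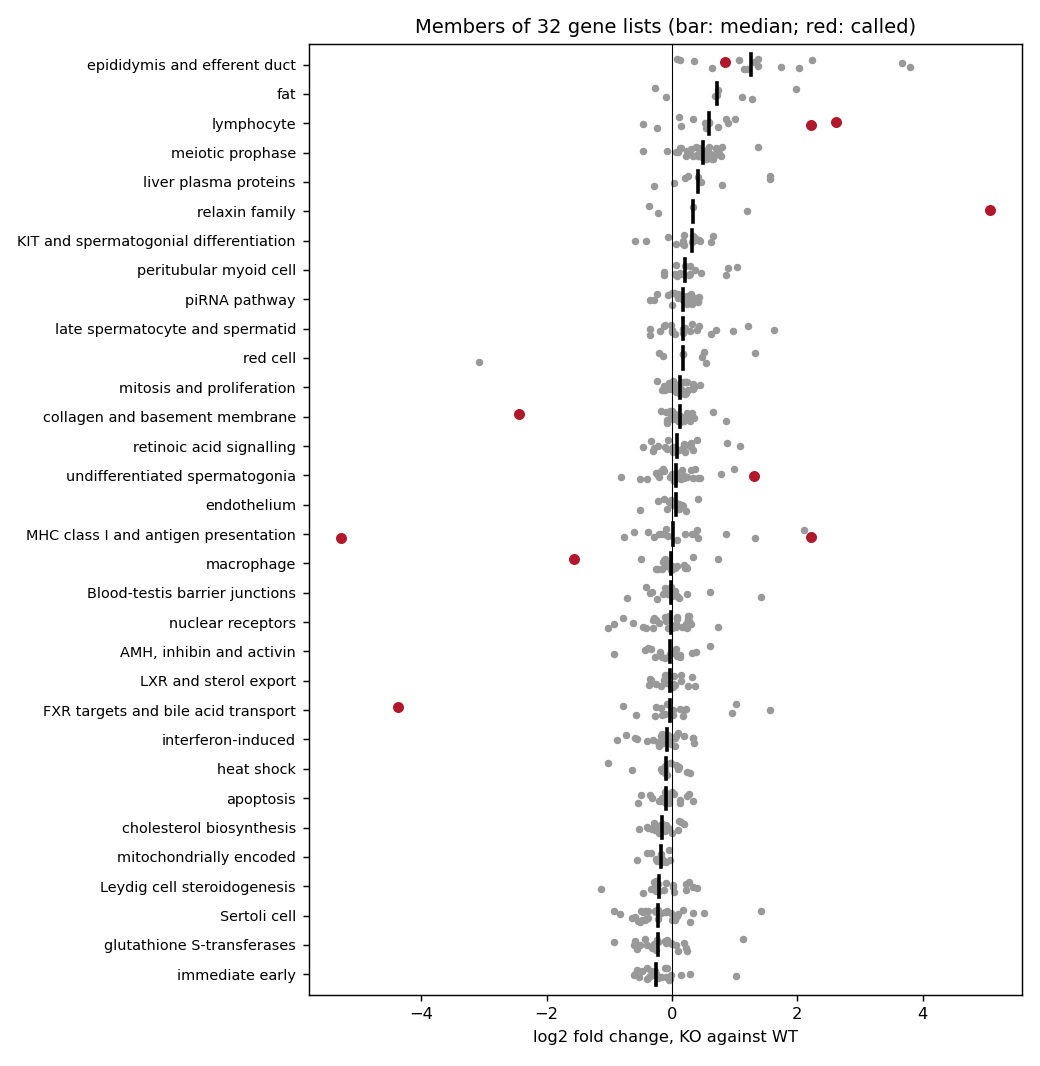
Log2 fold change of KO against WT for the tested members of 32 gene lists, 1 point per gene, with a bar at each list's median and called genes in red. Medians lay between -0.26 (immediate early genes) and 1.26 (epididymis and efferent duct), and 10 genes in these lists were called.

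Sertoli cell genes leaned lower in KO, without a call. Of 35 tested, 25 had a log2 fold change below zero (median -0.23 beside 0.00 for all genes). In edgeR 0 passed, beside 0.971% of all genes tested. The groups did not overlap for 11 of the 35, beside 16.9% of all genes tested. Gstm6, a glutathione transferase of Sertoli cells, came closest, at 550, 555, 498 and 680 CPM in WT and 357, 369 and 409 CPM in KO (-0.59 ± 0.113, adjusted p = 0.0533). Sox9, the transcription factor that fixes Sertoli cell fate, was at 192 to 269 CPM in WT against 155 to 167 in KO (-0.48, 0.114). Amh, the hormone of immature Sertoli cells, was at 236, 282, 318 and 622 CPM in WT against 169 to 219 in KO (-0.92, 0.212), with WT T81 far above the other WT animals. Summed levels of the list overlapped, at 10258 to 15399 CPM in WT against 10056 to 10599 in KO.

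Genes of meiosis leaned the other way. Of 40 genes of meiotic prophase, 38 had a log2 fold change above zero (median 0.50), and 0 passed, beside 0.971% of all genes tested. The groups did not overlap for 4 of the 40, beside 16.9% of all genes tested. Tex14, which builds the bridges between germ cells, was at 105, 107, 107 and 60 CPM in WT and 125, 133 and 129 CPM in KO (0.45 ± 0.182, edgeR adjusted p = 0.28). Sycp3, a lateral element of the synaptonemal complex, ranged from 19.6 to 85.5 CPM among WT animals and from 50 to 104 CPM among KO animals. In both lists WT T81 was at an end, highest in Sertoli genes and lowest in meiotic genes. Summed meiotic levels were 2900.3, 2377, 1648 and 1048 CPM in WT T66, T71, T79 and T81 and 3567, 2777 and 2195 CPM in KO T1, T90 and T110. The WT range thus covered 2 of the 3 KO animals. Genes of KIT signalling and spermatogonial differentiation were above zero for 14 of 17 (median 0.32, 0 called), with Kit at 104 to 140 CPM in WT against 160 to 166 in KO (0.34, 0.203). Markers of undifferentiated spermatogonia lay on both sides, 18 of 31 above and 13 below zero (median 0.07), and 1 was called: Utf1, a chromatin factor of stem-like germ cells, at 1.98 to 3.05 CPM in WT against 5.09 to 8.41 in KO (1.30 ± 0.222, adjusted p = 0.0317). That call was made in 0 of the 7 fits without 1 animal, where its adjusted p was 0.0509 to 0.127.

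Leydig cell genes showed no call among 21 tested (13 below zero, median -0.20). Of all genes tested 0.971% were called, the share to set beside each list's count here. Star, which brings cholesterol into mitochondria, was at 23.8 to 76.5 CPM in WT against 31.7 to 73.9 in KO, and Cyp17a1, which makes androgen precursors, was at 23.6 to 180 and 54.5 to 166 CPM. Nr5a1, the steroidogenic factor SF-1, was at 252 to 339 CPM in WT against 199 to 208 in KO (-0.45 ± 0.109, edgeR adjusted p = 0.116), without overlap. Cholesterol biosynthesis genes were below zero for 21 of 26 (median -0.16, 0 called), with Hmgcs1, the first committed enzyme before mevalonate, at 303 to 494 CPM in WT against 258 to 293 in KO (-0.52, 0.167). Immediate early genes were below zero for 21 of 24 (median -0.26), and Jund was at 186 to 256 CPM in WT against 131 to 164 in KO (-0.55, 0.097). All 12 tested genes of the mitochondrial genome were below zero (median -0.17, 0 called). Glutathione S-transferases were below zero for 18 of 24 (median -0.23, 0 called).

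Immune genes held calls in both directions, beside 0.535% higher and 0.435% lower among all genes tested. Lta, Ltb, H2-Q1, H2-Q10 and H2-Eb1, the calls given here, all lie on chromosome 17 between 30 and 40 Mb. For them the FXRα genotype and the parental allele cannot be told apart. In the lymphocyte list, 13 of 15 tested were above zero (median 0.58) and the cytokine genes Lta and Ltb rose. Ltb, lymphotoxin β, was at 0.98, 0.707, 0.67 and 1.36 CPM in WT and 4.74, 3.81 and 4.38 CPM in KO (2.21 ± 0.259, adjusted p = 0.00464). Lta, lymphotoxin α, lies beside it and was at 0.0871 to 0.358 CPM in WT against 1.25 to 1.64 in KO (2.61, 0.0138; 5 of 7 fits). The T cell marker Cd3e was low and did not pass. It was at 0.547 to 2.76 CPM in WT against 2.09 to 3.2 in KO. Of 20 genes of MHC class I and antigen presentation, H2-Q10 fell and H2-Q1 rose (0.391 to 0.827 CPM in WT, 1.86 to 3.61 CPM in KO; 2.23, 0.0158; 4 of 7 fits), with a median of 0.01. Of 21 macrophage genes, H2-Eb1 fell and the median was -0.01.

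Smooth muscle genes of the peritubular layer were above zero for 15 of 17 (median 0.22, 0 called, beside 0.971% of all genes tested). Cnn1, calponin, was at 16.9 to 20.7 CPM in WT and at 48, 22.1 and 30.6 CPM in KO T1, T90 and T110, in the same order as Cdh16 in those KO animals. In WT T81, the WT library with high Cdh16, it was at 18.3 CPM, within the range of the other WT animals. A link to Cdh16 was not tested. Genes of fat (6 of 8 above zero) and liver plasma proteins (8 of 9) had medians of 0.73 and 0.42 with 0 called. The median lay between -0.10 and 0.18, with at most 1 call, for blood-testis barrier junctions, retinoic acid signalling, late spermatocytes and spermatids, the piRNA pathway, proliferation, apoptosis, sterol export, collagens and basement membranes, endothelium, interferon-induced genes, heat shock, red cells, the AMH and inhibin group and nuclear receptors. The 1 call in collagens and basement membranes was Olfml3.

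The same genotypes were then compared in animals given BPA or stigmasterol, which share no library with the vehicle animals. KO against WT called 110 of 19266 genes in BPA animals (0.571%) and 327 of 19318 in stigmasterol animals (1.69%), with 4 WT and 3 KO animals in each. Of the 185 vehicle calls, 164 were tested in BPA animals, 157 of them had the same direction and 61 were called in it. In stigmasterol animals 176 were tested, 172 had the same direction and 113 were called in it. No vehicle call was reversed by a call in either treatment, and 56 genes, 30 higher and 26 lower, were called in all 3 comparisons. Another 58 vehicle calls were not called in BPA or stigmasterol animals.

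Some of the large named changes recurred in all 3 comparisons and others did not. H2-Q10, Erdr1, Dnah6 and Sncb were called in neither treatment. Their edgeR adjusted p was 0.904, 0.391, 0.108 and 0.745 in BPA animals and 0.407, 0.470, 0.0851 and 0.423 in stigmasterol animals. With all 21 libraries normalised together, Rxfp1 was at 0.294 to 0.655 CPM in the 12 WT animals and at 8.99 to 23.5 CPM in the 9 KO animals. Olfml3 was at 41 to 66.3 CPM and 8.91 to 22.1 CPM in those groups. Tmod4 was at 0.47 to 0.863 CPM in WT against 3.55 to 4.06 in KO, and no WT animal of any treatment overlapped a KO animal for these 3 genes. Their log2 fold changes in BPA animals were 5.33, -2.09 and 2.42, and in stigmasterol animals 5.60, -1.96 and 2.44, each called. Igsf23, Ppm1n, Tchh, Isoc2b, Shisa7, Lair1, Mme, Usp44, Nnt and Akt2-ps were also called in the same direction in both. For all these recurring genes, the FXRα genotype and a linked or fixed parental allele cannot be told apart. Nr1h4 was below zero in both without a call (-0.68 and -0.64), and Nr0b2 was at 0.07 and -0.08. Utf1, which was called in vehicle animals, was at 0.03 in BPA and 0.91 in stigmasterol animals, called in neither.

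**Figure D5:**
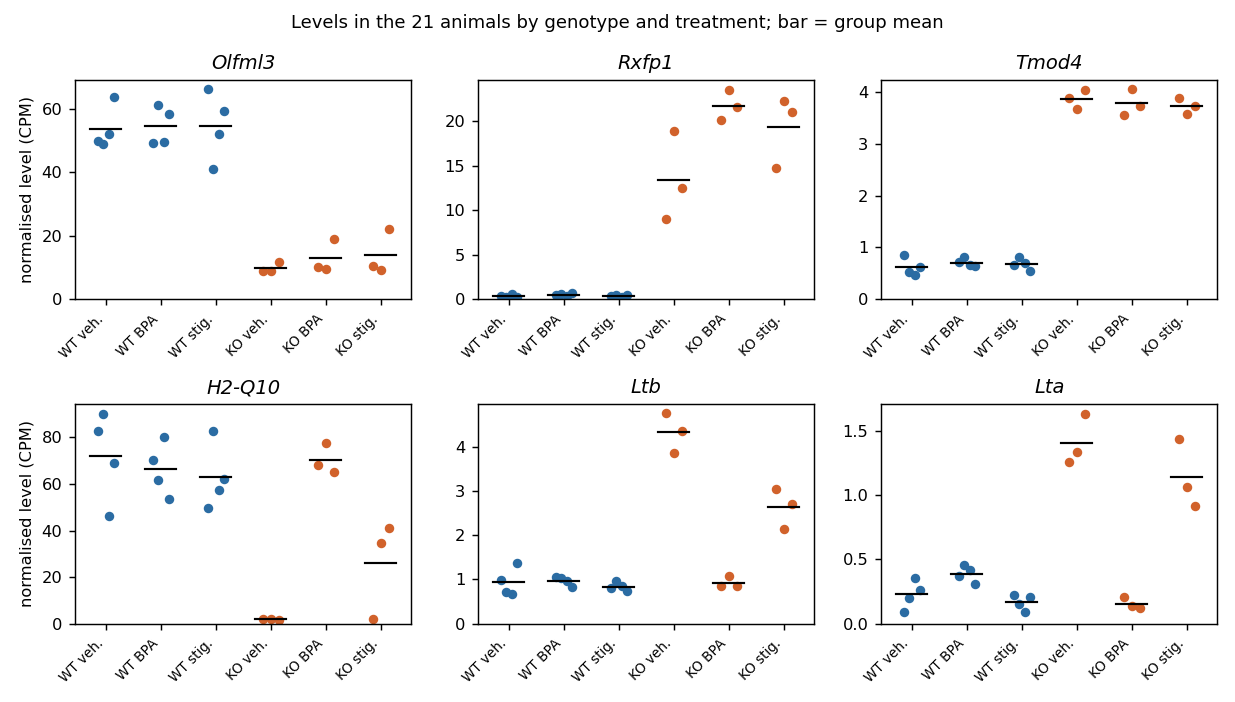
Normalised level (CPM, linear axes from 0) of 6 genes in each of the 21 animals, by genotype (WT blue, KO orange) and treatment (veh., vehicle; stig., stigmasterol), with bars at group means. Olfml3, Rxfp1 and Tmod4 separate the genotypes under every treatment, while H2-Q10, Ltb and Lta in the 3 KO animals given BPA lie within the range of the 12 WT animals.

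A difference of the genotype effect between vehicle and BPA animals was called for 3 of 20254 genes, all on chromosome 17 between 35194439 and 35474563 (1788 genes at an unadjusted p under 0.05). H2-Q10 was at 2.07, 1.82 and 1.65 CPM in KO vehicle animals, at 68, 77.6 and 65.1 CPM in KO BPA animals, and at 2.13, 34.6 and 41.2 CPM in KO stigmasterol animals. WT animals were at 46.4 to 89.9 CPM in all treatments, so the KO animals fell into low, intermediate and WT-like levels. The difference of its genotype effect, BPA minus vehicle, was 5.35 ± 0.774 on the log2 scale (SE, edgeR interaction, adjusted p = 0.0106). It was -3.92 ± 0.502 for Lta and -2.29 ± 0.306 for Ltb (0.00532 for each). Lta was at 0.123 to 0.206 CPM and Ltb at 0.84 to 1.07 CPM in KO BPA animals, both within the range of the 12 WT animals. For Lta the 3 KO BPA animals were below all 4 WT BPA animals (0.306 to 0.453 CPM; log2 -1.30, edgeR adjusted p = 0.173). These differences rest on 3 KO animals per treatment, of litters that the sources used here do not give, and treatment and inherited haplotype cannot be told apart.

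Other called genes also varied between animals of 1 genotype. Erdr1 was at 30.4 and 21.4 CPM in WT BPA animals T75 and T74 and at 43.1 CPM in WT stigmasterol animal T98, against 0.203 to 2.97 CPM in the other 9 WT animals. C1s2 was at 5.48 and 4.98 CPM in the same 2 WT BPA animals, above the KO vehicle animals (2.86 to 4.54 CPM), and its log2 fold change in BPA animals was 0.00. Pianp was at 4.81 CPM in KO BPA animal T83, a level seen in WT, and at 19.7 to 44.9 CPM in the other 8 KO animals. Guca1b was at 3.99 and 4.03 CPM in KO BPA animals T25 and T83 and at 0.84 CPM in T117. None of these 4 genes had a called difference of the genotype effect between vehicle and either treatment (adjusted p of 0.536 to 0.916). In stigmasterol animals the difference was called for 2 genes, Rpl31 and Rps27rt, neither of them called in vehicle animals (1855 genes at an unadjusted p under 0.05).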

How the data were processed

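Testis RNA was sequenced from single mice at postnatal day 10, 4 WT and 3 KO animals given vehicle, from libraries made with the Illumina TruSeq RNA kit per the labels' protocols. Per the file headers, the authors deposited raw read counts per gene, together with a normalized signal and a signal divided by gene length, which were not used here. The build mm10 and the tools TopHat2 2.0.10, Bowtie2 2.1.0, Bowtie and CASAVA 1.8.2 come from the submitters' processing notes. The counting tool, annotation release and handling of multiply mapping reads were not given in the sources used here. From the deposited counts, edgeR 4.0.16 (R 4.3.3, limma 3.58.1) was run on the 7 vehicle libraries with TMM factors, filterByExpr (minimum count 10, minimum total 15), the quasi-likelihood test and Benjamini-Hochberg adjustment over all genes tested, with 0.05 as the threshold. Levels are CPM with TMM factors over the same 7 libraries unless all 21 are named. Standard errors were derived from the log2 fold change and the test's F statistic. The fit was tested on simulated data.

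The genes named were the 15 largest rises, 15 largest falls and 10 smallest p among conventionally named called genes whose groups did not overlap and whose higher group averaged 1 CPM or more, plus called members of 32 gene lists, up to 3 members of each list by p, and 5 FXR genes. Others were chosen after their values were seen. The comparison, its lists and its tests were chosen with earlier results of these data known. Near copies were found with BLAST+ 2.17.0 on the longest transcript of each gene. Alternatives were DESeq2 1.42.0, limma-voom, relative log expression factors, no filter, all 21 libraries, and leaving out each animal. Leaving out libraries whose Cdh16 reached 10 CPM was chosen after seeing the data, as were the leave-one-out fits of the treated animals and the alternatives to the test of differing effects. Some genes are not reported here.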

Additional observations from a re-analysis of the deposited data

Results flagged for a closer look

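Among the 4 WT vehicle animals, 11 listed genes had 1 animal far from the other 3, and in 9 of them it was T81. T81 stood apart at 338.756 CPM for Nr5a1, 103.936 for Kit, 158.223 for Rara, 60.0212 for Tex14, 105.213 for Mcm5, 1553.33 for Scd2, 38.7805 for Abcg1, 1.82435 for Fabp4 and 460.675 for Inhbb. T79 stood apart at 76.2295 CPM for Pcna, and T66 at 1038.98 CPM for mt-Atp8. Chance marks about 1 in 20 groups in this way, and T81 is also the WT library with high Cdh16 (16.5 CPM). Whether these go together was not tested.

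The KO effect differed between BPA and vehicle animals, by a test of the difference itself, for Lta (BPA minus vehicle, -3.91994 on the log2 scale), Ltb (-2.2905) and H2-Q10 (5.35344). In each case the 3 KO animals given BPA were within the range of the 12 WT animals, though for Lta they were below all 4 WT animals given BPA. The cause was not tested.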

How the results depend on the processing

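The count of called genes depended on the tool and on single animals. It was 185 (102 higher, 83 lower) and became 894 (441 and 453) with DESeq2, 592 (251 and 341) with all 21 libraries fitted, and 29 (18 and 11) without the 3 libraries whose Cdh16 reached 10 CPM. With relative log expression factors it was 179, with limma-voom 184 and with no filter on low counts 264, of which 127 were lower. Leaving out 1 animal gave 88 to 188 called genes, 53 to 107 higher and 35 to 106 lower. The causes were not tested, except that fits without animals hold fewer samples. A called gene's direction was close to fixed in advance, because the alternatives used the same vehicle counts and its groups did not overlap. All 185 genes kept their direction under DESeq2, limma-voom, the other factors, no filter, all 21 libraries and without the high-Cdh16 libraries. Of them, 185, 174, 179, 183, 175 and 24 were called again in that order. Vehicle calls repeated in BPA animals numbered 61, 92 with DESeq2, and 46 to 54 without 1 BPA animal. In stigmasterol animals they numbered 113, and 76 to 112 without 1 animal. The effects differing in BPA animals numbered 3, and 2 to 3 without 1 vehicle animal, with 2 when T1, T90 or T110 was left out. No paired analysis was possible because the replicate numbers are those of single animals and none is shared between groups. Genes under about 1 CPM rest on few reads per library, and intervals cover counting error only.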
